A study of Homo sapiens with 6 samples.

Results

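The genes described here are 57 genes of mitosis: kinases, kinesins, kinetochore proteins and their regulators. They were taken from a list of 57 gene symbols that was chosen with earlier results of these data known. All 57 were found once each among the 53826 entries listed for every library. PK-1 and Panc-1, human cell lines of pancreatic ductal adenocarcinoma (PDAC), were kept as the control or exposed for 24 h to RARγi-1 (LY2955303) or RARγi-2 (MM11253), both antagonists of retinoic acid receptor γ. RNA-seq was carried out with 1 library for each of the 6 conditions, so differences could not be checked against replicates and no test was made. The inhibitor doses in the RNA-seq and the vehicle of the controls are not given in the sources used here, and the treatment entry of both RARγi-2 libraries names RARγi-1, so that these libraries are assigned by their titles. Levels are in TPM (a share of the library corrected for transcript length), with every value under 1 TPM raised to 1 TPM.

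Mitosis begins when cyclin B and its kinase partner are switched on by CDC25 phosphatases and helped by Aurora and Polo-like kinases. Chromosomes are then held to spindle microtubules at the kinetochore, a checkpoint delays anaphase until all are attached, and kinesins and the central spindle drive separation and cytokinesis. Transcripts of most of these genes peak in G2 and M phase of dividing cells, and their promoters are known for the CHR (cell cycle genes homology region), which MuvB complexes with B-MYB (MYBL2) and FOXM1 bind, and for CCAAT boxes, which NF-Y binds.

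By role, the 57 genes comprised 4 mitotic kinases, 4 cyclins and phosphatases of mitotic entry, 5 spindle checkpoint genes, 5 genes of anaphase and mitotic exit, 8 kinesins, 12 centromere and kinetochore genes, 4 genes of the chromosomal passenger complex, 7 spindle assembly genes, 3 cytokinesis genes, 2 transcription factors and 3 genes of chromosome structure and surface. Promoter windows from RefSeq (build GRCh38.p14, 250 bases before to 50 after the transcription start, 1 window for each gene) were held for 46 of the 57. The windows below were chosen among genes that have a window and lie at 10 TPM or more in both controls. Of these, KIF20A, ANLN and TOP2A are the 3 with the lowest mean log2 fold change over the 4 comparisons. SKA1, CDC25C and CDC25B are the 3 with the highest. BUB3 had a higher mean (-0.57) than SKA1 and CDC25C but has no window here. CCNB2 and PLK1 were added after their values were seen, because their windows place CCAAT boxes and a CHR in a row. Capitals mark matches on either strand. CHR was searched as TTTGAA and, in a second form, as TTCGAA. E2F sites were searched as TTCCCGC and in a second form, TTTGGCGC. The NF-Y motif was searched as CCAAT. In the windows shown, no match shares a base with another.
KIF20A, chr5:138178862-138179161, plus strand: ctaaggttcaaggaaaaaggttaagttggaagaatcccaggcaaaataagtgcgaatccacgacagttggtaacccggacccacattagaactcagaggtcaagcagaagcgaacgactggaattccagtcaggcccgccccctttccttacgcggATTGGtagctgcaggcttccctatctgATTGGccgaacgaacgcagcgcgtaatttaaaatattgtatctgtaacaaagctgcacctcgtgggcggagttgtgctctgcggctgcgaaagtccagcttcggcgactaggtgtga
ANLN, chr7:36389612-36389911, plus strand: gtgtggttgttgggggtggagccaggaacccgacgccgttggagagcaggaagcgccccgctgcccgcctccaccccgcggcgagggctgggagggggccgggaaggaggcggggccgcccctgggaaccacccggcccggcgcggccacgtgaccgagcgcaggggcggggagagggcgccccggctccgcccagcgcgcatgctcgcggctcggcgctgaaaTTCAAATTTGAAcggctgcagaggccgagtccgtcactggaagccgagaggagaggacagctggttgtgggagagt
TOP2A, chr17:40417847-40418146, minus strand: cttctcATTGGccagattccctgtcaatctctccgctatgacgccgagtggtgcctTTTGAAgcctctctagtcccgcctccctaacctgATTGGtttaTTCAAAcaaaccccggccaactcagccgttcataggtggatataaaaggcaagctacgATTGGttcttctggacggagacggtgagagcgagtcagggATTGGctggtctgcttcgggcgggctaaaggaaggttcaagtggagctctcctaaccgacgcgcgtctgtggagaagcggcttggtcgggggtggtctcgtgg
SKA1, chr18:50374796-50375095, plus strand: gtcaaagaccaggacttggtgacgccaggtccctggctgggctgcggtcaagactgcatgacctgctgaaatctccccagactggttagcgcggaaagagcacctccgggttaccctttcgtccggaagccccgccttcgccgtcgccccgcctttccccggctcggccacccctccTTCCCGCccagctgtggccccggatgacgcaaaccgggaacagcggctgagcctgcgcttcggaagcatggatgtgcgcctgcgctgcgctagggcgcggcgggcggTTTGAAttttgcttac
CDC25C, chr5:138331828-138332127, minus strand: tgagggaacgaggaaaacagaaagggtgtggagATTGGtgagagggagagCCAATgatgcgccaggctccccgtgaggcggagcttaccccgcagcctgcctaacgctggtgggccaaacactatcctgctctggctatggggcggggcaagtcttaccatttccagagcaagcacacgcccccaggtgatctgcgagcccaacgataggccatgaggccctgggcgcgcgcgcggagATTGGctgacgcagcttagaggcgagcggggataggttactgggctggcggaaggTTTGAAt
CDC25B, chr20:3795539-3795838, plus strand: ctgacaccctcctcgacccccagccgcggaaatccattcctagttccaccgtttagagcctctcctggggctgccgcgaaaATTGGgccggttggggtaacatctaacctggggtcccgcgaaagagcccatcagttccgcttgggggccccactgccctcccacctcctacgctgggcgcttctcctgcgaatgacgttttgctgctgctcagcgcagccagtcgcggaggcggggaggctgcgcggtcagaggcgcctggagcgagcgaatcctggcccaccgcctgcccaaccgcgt
CCNB2, chr15:59104896-59105195, plus strand: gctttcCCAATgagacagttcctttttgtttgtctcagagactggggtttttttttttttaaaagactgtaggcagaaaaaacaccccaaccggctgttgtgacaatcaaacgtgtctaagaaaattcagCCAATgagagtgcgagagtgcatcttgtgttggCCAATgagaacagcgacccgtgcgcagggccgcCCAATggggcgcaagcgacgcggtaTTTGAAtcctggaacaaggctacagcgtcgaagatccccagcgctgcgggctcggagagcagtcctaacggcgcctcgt
PLK1, chr16:23678639-23678938, plus strand: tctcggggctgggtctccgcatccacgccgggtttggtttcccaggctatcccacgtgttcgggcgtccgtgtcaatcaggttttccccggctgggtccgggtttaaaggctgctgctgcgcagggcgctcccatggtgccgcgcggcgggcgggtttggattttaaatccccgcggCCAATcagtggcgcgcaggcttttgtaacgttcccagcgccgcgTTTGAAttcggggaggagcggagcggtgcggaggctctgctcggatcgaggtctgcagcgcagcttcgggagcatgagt

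In CCNB2, 4 CCAAT boxes began 244, 120, 87 and 54 bases before the start, and the CHR began 29 bases before it. In PLK1 a single CCAAT box began 73 bases before the start and the CHR again 29 bases before it. ANLN held 2 CHR matches back to back, beginning 26 and 20 bases before the start, and no CCAAT. KIF20A held 2 CCAAT boxes and neither of the CHR forms searched. TOP2A held 4 CCAAT boxes and 2 CHR matches, which began 194 and 151 bases before the start, among the CCAAT boxes. Of the 3 genes shown with the highest means, SKA1 had its CHR letters 35 bases after the start with an E2F match upstream. CDC25C had 3 CCAAT boxes and its CHR letters 44 bases after the start, and CDC25B had 1 CCAAT box only. CHR letters after the start were not particular to these genes. CENPF and MAD2L1 had theirs 41 and 25 bases after it, with mean log2 fold changes of -2.27 and -2.22. CDC25B and CDC25C are listed with 4 windows each, of which 1 is shown. The starts of the PLK1, TOP2A and MAD2L1 windows have no GENCODE 29 transcript start within 50 bases. Distances in these windows therefore rest on the RefSeq start alone. Which start these cells use was not measured.

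Over the 46 windows, CHR letters were found in 35 (76.1%), against 16.6% of the windows of all 27305 genes listed. CCAAT was found in 35 (76.1%), against 35.8% of all windows, and both together in 28 (60.9%), against 6.57%. E2F letters were found in 6 (13.0%), against 7.17%. Among 9786 windows of entries at 5 TPM or more in at least 1 library, the shares were 10.6% for CHR, 37.0% for CCAAT, 4.66% for both and 11.6% for E2F. Within 100 bases before and 50 after the start, CHR letters were in 69.6% of member windows and 7.48% of all windows, and CCAAT in 67.4% and 22.2%. The CHR matches gathered at the start itself: with the first base between 50 bases before and 10 after the start, a range chosen after the positions were seen, they were in 24 windows (52.2%), against 3.36% of all. The median of the mean log2 fold change was -2.10 over the 35 genes with CHR letters and -1.89 over the 11 without. KIF20A, the lowest of all, was among those without. Only the CHR forms given above were searched, so a gene without them lacks those forms only. A match is a description of letters, not of a bound site.

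**Figure D1:**
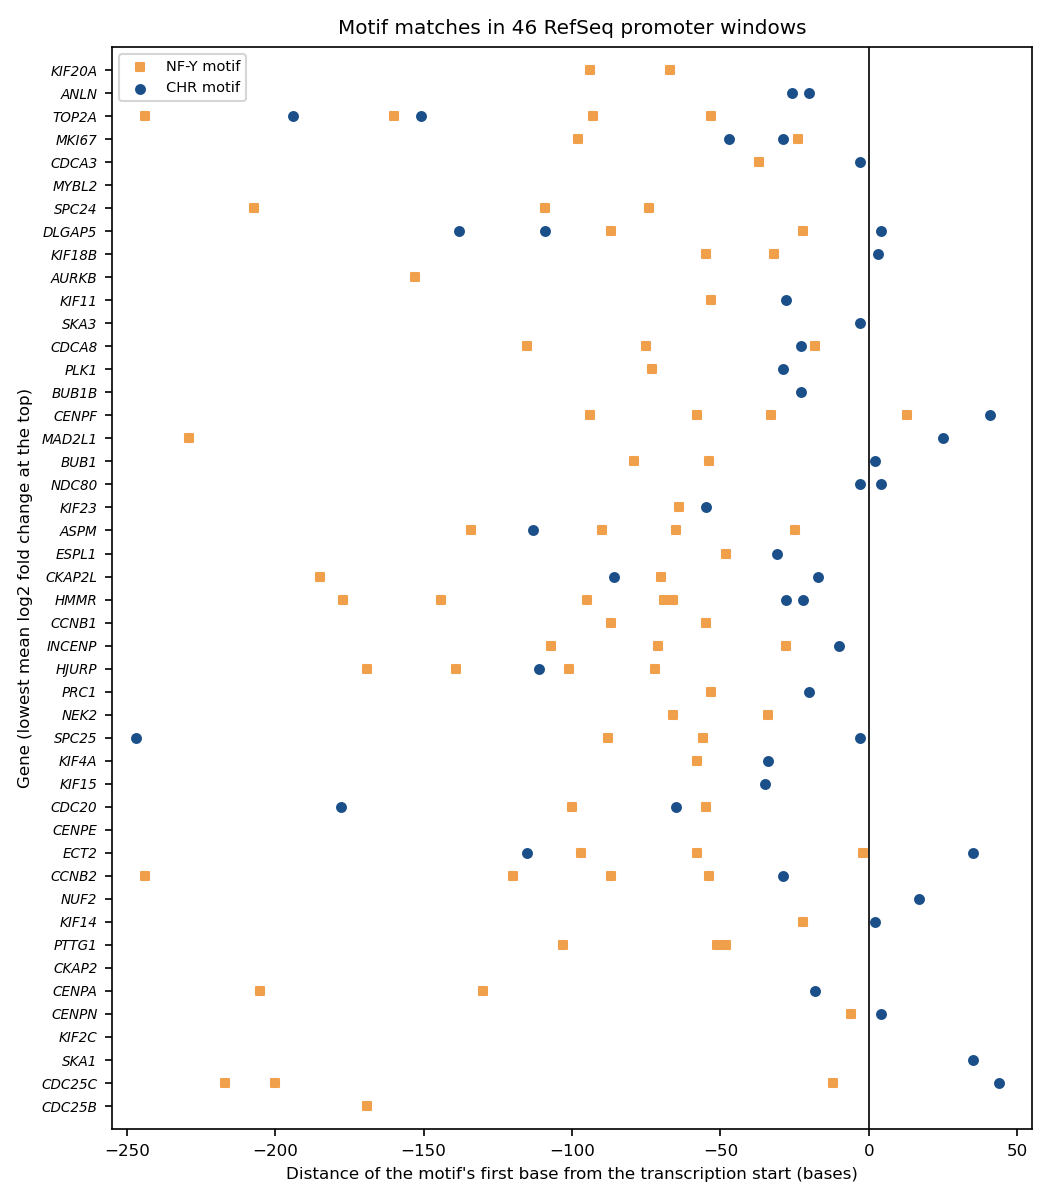
Distance in bases from the transcription start (x axis) of the first base of each CHR match (circles) and each NF-Y motif match, the CCAAT letters (squares), in the promoter windows of 46 genes (y axis), ordered by mean log2 fold change with the lowest at the top. In 24 of the 46 windows a CHR match begins between 50 bases before and 10 bases after the start.

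Both inhibitors were followed by lower levels of nearly the whole set in both PDAC lines. Log2 fold changes were taken on the log2(TPM + 1) scale against the control of the same line, and a gene was called lower or higher past 2-fold. In PK-1, RARγi-1 left 51 of 57 genes lower past 2-fold, where 5.67% of all 11268 entries with at least 5 TPM in 1 or more libraries of the line were lower. RARγi-2 left 55 lower in PK-1 (14.6% of all entries). In Panc-1, 48 were lower with RARγi-1 (7.11% of 11056 entries) and 54 with RARγi-2 (13.0%). No member was higher past 2-fold in any comparison, where the shares of all entries were 10.7% and 13.9% for PK-1 with RARγi-1 and RARγi-2 and 8.58% and 9.88% for Panc-1. In all 4 comparisons at once, 46 of the 57 were lower past 2-fold, against 2.64% of the 9912 entries measured in both lines. Comparisons within a line share their control library, so they are not independent of each other. The 57 genes were chosen with earlier results of these data known, so the gap to all entries is a description and not a test.

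Median log2 fold changes of the members were -1.55 (PK-1, RARγi-1), -3.01 (PK-1, RARγi-2), -1.5 (Panc-1, RARγi-1) and -2.11 (Panc-1, RARγi-2), and those of all entries were 0.15, -0.01, 0.09 and -0.03. Relative to all entries the members thus lay at -1.70, -3.0, -1.59 and -2.07 on the log2 scale. A larger step, 4-fold, was passed by 9 members in PK-1 and 7 in Panc-1 with RARγi-1 (0.737% and 1.11% of all entries), and by 53 and 38 with RARγi-2 (3.82% and 3.27%). In PK-1 with RARγi-2, 29 of 57 were lower past 8-fold, where 0.985% of all entries lay at or below -3 on the log2 scale. All 57 passed the minimum of 5 TPM in both lines, and each had at least 7.78 TPM in the controls, so that a 2-fold fall could be seen in every one.

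**Figure D2:**
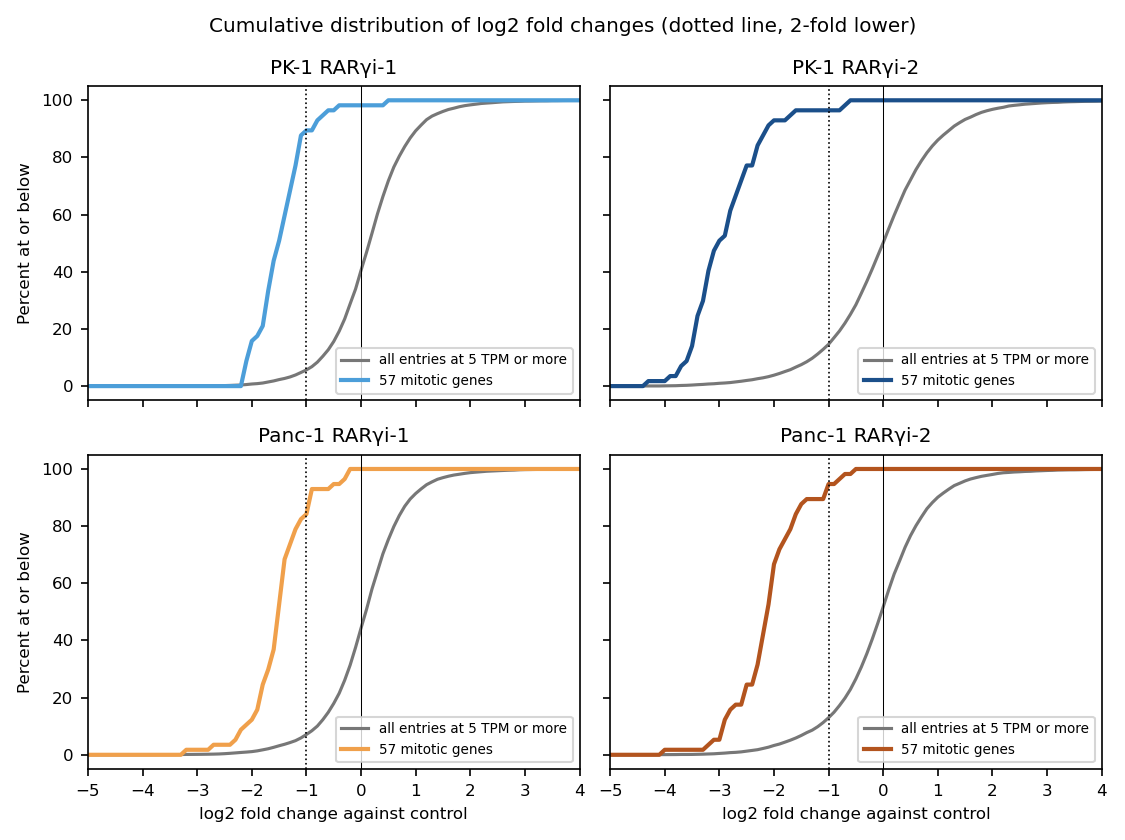
Cumulative percent (y axis) of the 57 genes (coloured lines) and of all entries at 5 TPM or more (grey) at or below each log2 fold change (x axis), 1 panel for each treated library. The coloured line lies far to the left of the grey in each panel, with member medians of -1.55, -3.01, -1.5 and -2.11.

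Summed over the 57 genes, the level was 5044 TPM in control PK-1 cells, 1919 with RARγi-1 and 695 with RARγi-2. In Panc-1 cells it was 6172, 2325 and 1598 TPM. These sums were 38.0% and 13.8% of the control for PK-1 and 37.7% and 25.9% for Panc-1. The lines therefore had nearly the same remaining share with RARγi-1 and different shares with RARγi-2. The number of members at 100 TPM or more went from 14 to 5 and 0 in PK-1, and from 21 to 6 and 4 in Panc-1. Bulk RNA-seq cannot tell fewer mitotic cells from less of each transcript per cell.

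**Figure D3:**
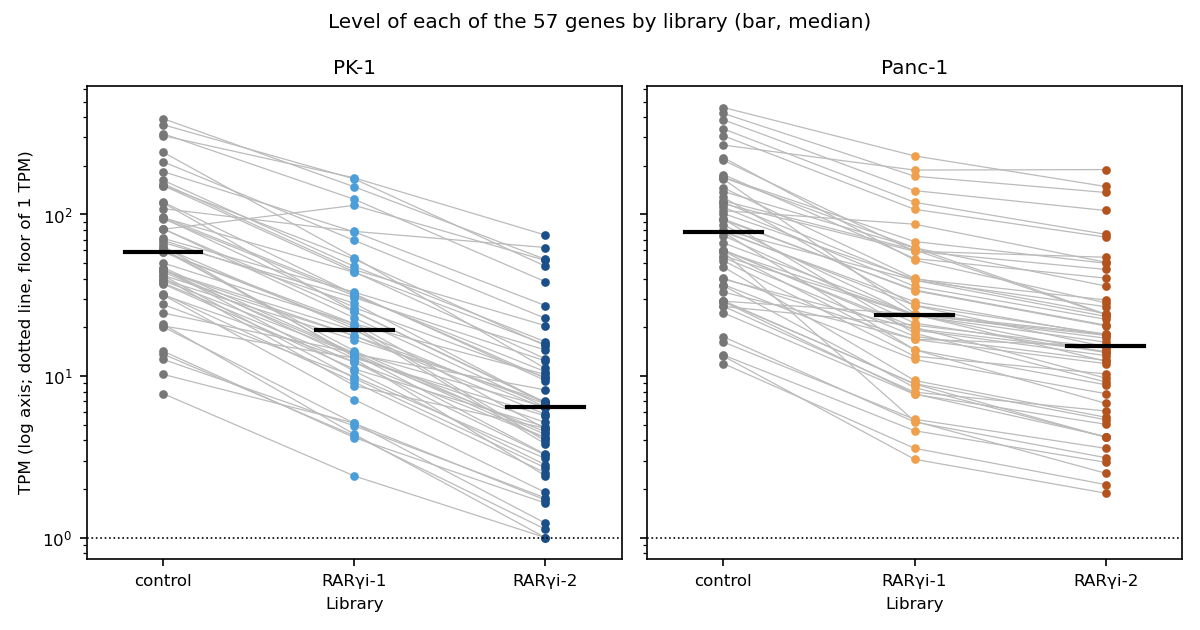
Level in TPM (y axis, log scale) of each of the 57 genes (points, joined by a line for each gene) in the 3 libraries of PK-1 and of Panc-1, with the median as a bar and the floor of 1 TPM dotted. Medians were 58.6, 19.1 and 6.43 TPM in PK-1 cells and 77.5, 23.9 and 15.4 TPM in Panc-1 cells, in the order control, RARγi-1, RARγi-2.

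Against these libraries as a whole, the members were a small part, 0.504% of all TPM in control PK-1 cells and 0.617% in control Panc-1 cells. Between 74.6% and 75.6% of entries lay at the floor in each library. As PDAC lines, both listed KRT8, KRT18 and KRT19 at 1454 TPM or more in the controls, while CDH1 was at the floor in every Panc-1 library. EPCAM was at 578, 552 and 497 TPM in PK-1 cells (control, RARγi-1, RARγi-2) and 13.4, 19.4 and 9.18 TPM in Panc-1 cells. The summed level of 5 ductal epithelial markers moved with treatment, from 16834 TPM in control PK-1 cells to 11210 and 11657 TPM, and from 8413 TPM in control Panc-1 cells to 1781 and 1482 TPM. These sums were mostly KRT8, KRT18 and KRT19, whereas CDH1 in PK-1 moved the other way, at 170.1, 270.2 and 385 TPM. Their part in the results was not tested. Of the markers of other cells, 4 of 5 fibroblast markers, PTPRC and CD3E among 4 leukocyte markers, and all 3 endothelial markers were at or near the floor in every library. The fifth fibroblast marker, COL1A1, was at 3.21, 11.53 and 13.4 TPM in PK-1 cells and 52.4, 4.65 and 2.10 TPM in Panc-1 cells, so it moved in opposite directions. VIM, a marker of the mesenchymal state, was at 41.7, 92.1 and 139.98 TPM in PK-1 cells and 6291, 4049 and 3962 TPM in Panc-1 cells, while ZEB1 and CDH2 were at the floor in PK-1. The other leukocyte markers were CD68, from 19.8 to 276 TPM, and LYZ, from 4.15 to 6.78 TPM. Of 3 acinar markers, PRSS1 was above the floor in PK-1 alone, at 1.06, 11.1 and 21.2 TPM. Whether these markers bear on the members was not tested.

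Among the mitotic kinases, all 4 were lower past 2-fold in all 4 comparisons. PLK1, a kinase of centrosomes, kinetochores and cytokinesis, was at 94.9, 26.5 and 9.83 TPM in PK-1 (control, RARγi-1, RARγi-2, the order used throughout) and at 169, 62.4 and 24.2 TPM in Panc-1 cells. Its log2 fold changes were -1.80, -3.15, -1.43 and -2.76, in the order PK-1 then Panc-1. AURKA, which matures centrosomes and builds the spindle, was at 184, 78.1 and 27.3 TPM in PK-1 cells and 177, 53.4 and 40.4 TPM in Panc-1 cells. Each treated library thus held at most 42.4% of its control's AURKA. PBK, a kinase active in mitosis, had the lowest mean log2 fold change of the 4 and was at 62.5, 19.6 and 3.80 TPM in PK-1 cells and 47.4, 9.38 and 5.56 TPM in Panc-1 cells. NEK2, which separates centrosomes, had the highest mean of the 4 and was at 31.8, 12.2 and 4.15 TPM and at 36.8, 12.7 and 7.78 TPM, with log2 fold changes from -1.31 to -2.67. PLK1 has exons that overlap genes on the opposite strand, and whether the counting used the strand is not given in the sources used here.

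The cyclins and phosphatases of mitotic entry moved unequally. CCNB1, the main mitotic cyclin, was at 316, 124 and 38.4 TPM in PK-1 cells and 339, 119 and 75.4 TPM in Panc-1 cells. CCNB2 was at 95.4, 43.9 and 15.7 TPM in PK-1 cells and 139, 62.2 and 36.1 TPM in Panc-1 cells. Both cyclins fell past 2-fold in all 4 comparisons, with log2 fold changes from -1.10 to -3.01. CDC25B, a phosphatase that activates CDK1, was at 81.0, 114 and 52.0 TPM in PK-1 cells and 105, 87.1 and 50.6 TPM in Panc-1 cells. It was the single member above its control in any library, with a log2 fold change of 0.49 in PK-1 with RARγi-1, and it passed 2-fold only in Panc-1 with RARγi-2 (-1.04). CDC25C, the other phosphatase, was at 20.4, 12.9 and 5.67 TPM and at 27.0, 20.7 and 14.98 TPM, and passed 2-fold only in PK-1 with RARγi-2 (-1.68). CDC25C exons overlap FAM53C on the opposite strand by up to 276 bases.

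In the spindle checkpoint, BUB1, BUB1B, MAD2L1 and TTK fell past 2-fold in all 4 comparisons and BUB3 in none. BUB1B, the BUBR1 component of the mitotic checkpoint complex, was at 58.6, 20.4 and 3.96 TPM in PK-1 cells and 59.8, 20.04 and 9.71 TPM in Panc-1 cells. MAD2L1, which sequesters CDC20, was at 119, 32.1 and 9.69 TPM in PK-1 cells and 92.5, 34.1 and 20.7 TPM in Panc-1 cells. In PK-1 with RARγi-2, they had 6.76% and 8.12% of the control left. BUB3, the adaptor that brings BUB1 and BUBR1 to kinetochores, was at 109, 78.6 and 62.5 TPM in PK-1 cells and at 269, 188 and 189.6 TPM in Panc-1 cells. Its log2 fold changes were -0.46, -0.79, -0.51 and -0.50, which made it the least changed gene of the group in each comparison. The kinases BUB1 and TTK fell too, with log2 fold changes from -1.40 to -3.38. BUB1B shares exon sequence on its own strand with the readthrough gene BUB1B-PAK6.

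Genes of anaphase and mitotic exit were among the most abundant members. CDC20, the activator of the anaphase-promoting complex, was the highest member in both controls, at 392, 148 and 52.8 TPM in PK-1 cells and 459.5, 231 and 149 TPM in Panc-1 cells. In Panc-1 with RARγi-1 it had 50.2% of the control, just short of the 2-fold call (log2 fold change -0.99). UBE2C, the ubiquitin-conjugating enzyme of the complex, was at 359, 166 and 47.9 TPM in PK-1 cells and 386, 141 and 106 TPM in Panc-1 cells, past 2-fold in each. PTTG1, the securin that restrains separase, was at 308, 169 and 74.6 TPM in PK-1 cells and 307, 108 and 72.4 TPM in Panc-1 cells. It was short of 2-fold only in PK-1 with RARγi-1 (-0.86). ESPL1, separase itself, fell in each, with log2 fold changes from -1.56 to -2.53. As the groups were drawn up here, CDCA3 had the lowest mean log2 fold change of this one. It was at 61.3, 13.4 and 4.52 TPM in PK-1 cells and 77.5, 14.5 and 8.83 TPM in Panc-1 cells. Its exons overlap GNB3 on the opposite strand.

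All 8 kinesins fell past 2-fold with RARγi-2 in both lines, and 7 did with RARγi-1 in each. KIF20A, a kinesin of the central spindle needed for cytokinesis, had the lowest mean of all 57 genes. It was at 46.1, 10.7 and 2.82 TPM in PK-1 cells and 58.6, 5.25 and 2.50 TPM in Panc-1 cells. This left 23.3% and 6.13% of the control in PK-1 cells and 8.96% and 4.27% in Panc-1, so RARγi-1 left a smaller share in Panc-1 than in PK-1. KIF23, a motor of the centralspindlin complex, was at 81.4, 24.99 and 6.81 TPM in PK-1 cells and 77.9, 28.9 and 17.8 TPM in Panc-1 cells. KIF2C, a microtubule depolymerase at centromeres, was at 71.1, 33.0 and 14.5 TPM in PK-1 cells and 116, 59.2 and 54.4 TPM in Panc-1 cells. In Panc-1, KIF2C lay close to the 2-fold call with both inhibitors (-0.96 and -1.08). KIF11, which pushes spindle poles apart, had log2 fold changes of -1.99, -3.51, -1.75 and -2.32. KIF18B, which acts on microtubule ends, had 5.27% of its control left in PK-1 with RARγi-2. KIF4A, a motor on chromosome arms, had log2 fold changes from -1.20 to -2.66. KIF14 was short of 2-fold only in PK-1 with RARγi-1 (-0.88). KIF15, a motor that helps keep the spindle bipolar, was at the floor in PK-1 with RARγi-2 and had at most 12.9% of its control there. Exons of KIF20A overlap CDC23 on the opposite strand by up to 68 bases, and CDC23 held 83.9%, 63.1%, 109% and 96.6% of its control.

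Of 12 centromere and kinetochore genes, 11 fell past 2-fold in PK-1 with RARγi-1, 12 with RARγi-2, and 8 and 11 in Panc-1. NDC80, of the complex that grips microtubules, was at 96.3, 32.3 and 9.38 TPM in PK-1 cells and 66.6, 24.1 and 12.4 TPM in Panc-1 cells. Its partners NUF2, SPC24 and SPC25 also fell past 2-fold in all 4 comparisons. SPC24 had the lowest mean log2 fold change of the group, though not the lowest value in each comparison, and was at 20.9, 4.36 and 1 TPM (the floor) in PK-1 and 36.2, 8.50 and 4.19 TPM in Panc-1 cells, so that at most 4.78% of the control was left in PK-1 with RARγi-2. HJURP, the chaperone that loads the centromeric histone CENPA, was at 39.0, 13.6 and 3.27 TPM in PK-1 cells and 122, 60.4 and 24.0 TPM in Panc-1 cells. With RARγi-1 in Panc-1 it had 49.7% of its control in TPM but was not past 2-fold on the log2(TPM + 1) scale (-0.997). CENPA itself fell in each comparison, with log2 fold changes from -1.01 to -2.56. SKA1, of the complex that keeps kinetochores on moving microtubules, had the highest mean of the group and was at 24.5, 13.9 and 6.43 TPM in PK-1 cells and 29.1, 24.2 and 17.2 TPM in Panc-1 cells. It passed 2-fold only in PK-1 with RARγi-2 (-1.78), whereas its partner SKA3 had log2 fold changes from -1.59 to -3.49. The inner kinetochore genes CENPM and CENPN passed 2-fold in 3 comparisons each, not in Panc-1 with RARγi-1 (-0.98 and -0.93). The motor CENPE and the kinetochore protein CENPF had log2 fold changes from -1.21 to -3.23.

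All 4 genes of the chromosomal passenger complex fell past 2-fold in all 4 comparisons. AURKB, its kinase, was at 151, 44.1 and 12.8 TPM in PK-1 cells and 146, 40.3 and 24.4 TPM in Panc-1 cells. BIRC5 (survivin) was at 163, 47.7 and 16.3 TPM in PK-1 cells and 216, 59.2 and 45.7 TPM in Panc-1 cells. INCENP, the scaffold, was at 37.1, 11.1 and 4.85 TPM in PK-1 cells and 27.0, 7.95 and 6.08 TPM in Panc-1 cells. The 4 genes, CDCA8 (borealin) included, lay from -1.66 to -1.79 in PK-1 with RARγi-1 and from -1.58 to -1.85 in Panc-1. With RARγi-2 they lay farther apart, from -2.70 to -3.47 in PK-1 cells and from -1.98 to -2.54 in Panc-1.

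All 7 spindle assembly genes fell past 2-fold in all 4 comparisons. TPX2, which activates AURKA on the spindle, was at 212, 69.1 and 22.8 TPM in PK-1 cells and 422, 173 and 137 TPM in Panc-1 cells. PRC1, which bundles the microtubules of the central spindle, was at 151, 52.9 and 15.4 TPM in PK-1 cells and 170.0, 68.0 and 49.9 TPM in Panc-1 cells. PRC1 exons overlap another gene on its own strand by up to 1013 bases. DLGAP5, a microtubule stabiliser near chromosomes, had the lowest mean log2 fold change of the group and was at 46.9, 13.9 and 4.15 TPM in PK-1 cells and 59.4, 14.6 and 6.78 TPM in Panc-1 cells. CKAP2 had the highest mean and was at 39.6, 16.8 and 6.98 TPM and at 40.3, 16.8 and 11.9 TPM, with log2 fold changes from -1.19 to -2.35. The spindle pole gene ASPM, HMMR and CKAP2L lay between -1.27 and -3.19.

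In cytokinesis, ANLN, the scaffold of the contractile ring, was at 118, 25.1 and 6.87 TPM in PK-1 cells and 166, 24.3 and 18.2 TPM in Panc-1 cells. It had 21.3% and 5.83% of its control left in PK-1 cells and 14.7% and 10.98% in Panc-1. RACGAP1, the partner of KIF23 in centralspindlin, was at 94.0, 31.4 and 10.6 TPM in PK-1 cells and 101, 39.9 and 29.6 TPM in Panc-1 cells. ECT2, the exchange factor that switches on RhoA at the cell equator, was at 67.0, 30.6 and 12.4 TPM in PK-1 cells and 59.5, 23.9 and 14.0 TPM in Panc-1 cells. All 3 genes fell past 2-fold in all 4 comparisons. ANLN and RACGAP1 exons overlap genes on the opposite strand by up to 78 and 137 bases.

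The transcription factors that bind with MuvB at mitotic promoters fell with the other members. MYBL2 was at 63.7, 13.1 and 5.16 TPM in PK-1 cells and 225, 52.2 and 28.4 TPM in Panc-1 cells, and was the lowest member in PK-1 with RARγi-1 (-2.19). FOXM1 was at 155, 45.5 and 20.5 TPM in PK-1 cells and 93.8, 33.8 and 20.4 TPM in Panc-1 cells. Both fell past 2-fold in all 4 comparisons.

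Genes of chromosome structure and surface had the lowest group median in 4 of 4 comparisons, from -2.0 to -3.53. TOP2A, the topoisomerase that disentangles sister chromatids, was at 243, 54.2 and 11.1 TPM in PK-1 cells and 127, 27.3 and 15.2 TPM in Panc-1 cells, and was the lowest member in PK-1 with RARγi-2 (-4.33). MKI67, the proliferation marker Ki-67 that coats mitotic chromosomes, was at 41.8, 9.69 and 2.71 TPM in PK-1 cells and 93.5, 18.4 and 9.19 TPM in Panc-1 cells. CDCA2, which targets protein phosphatase to chromosomes, was at 20.1, 5.10 and 1.71 TPM in PK-1 cells and 11.9, 3.57 and 2.13 TPM in Panc-1 cells. All 3 fell past 2-fold in all 4 comparisons.

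**Figure D4:**
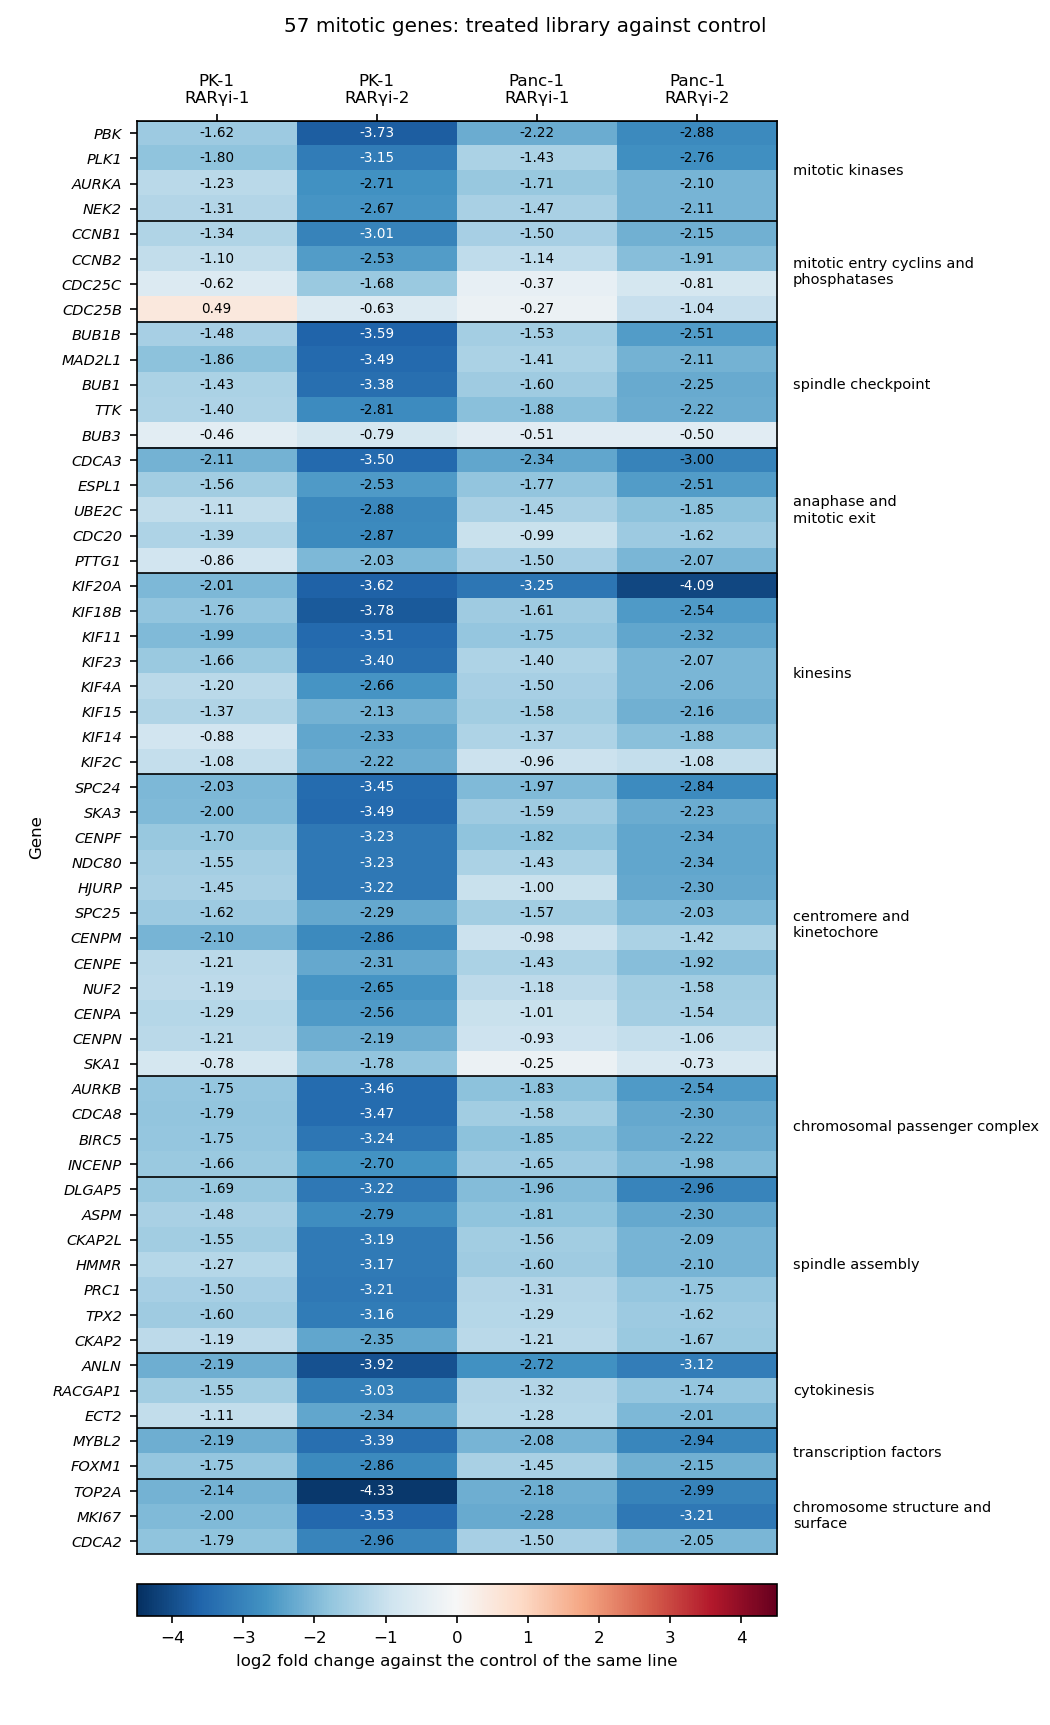
Log2 fold change, on the log2(TPM + 1) scale, of each of the 57 genes (rows, grouped by role and ordered by mean) in the 4 treated libraries (columns), each against the control of its line. Blue is lower and red higher than the control. CDC25B in PK-1 with RARγi-1 (0.49) is the single value above 0, and BUB3, CDC25B, CDC25C and SKA1 are the palest rows.

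The exceptions were therefore few. BUB3 passed 2-fold in 0 comparisons, CDC25B, CDC25C and SKA1 in 1 each, and CDC20, PTTG1, KIF2C, KIF14, HJURP, CENPM and CENPN in 3 each, which leaves 46 in all 4. Of the 7 genes in 3 comparisons, CDC20, KIF2C, HJURP, CENPM and CENPN were short of 2-fold in Panc-1 with RARγi-1, and PTTG1 and KIF14 in PK-1 with RARγi-1.

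RARγi-2 left lower levels than RARγi-1 in most genes, and more so in PK-1. In PK-1 all 57 genes were lower with RARγi-2 than with RARγi-1, with a median difference of -1.46 on the log2 scale. Of these, 51 were lower past 2-fold, against 5.19% of all entries, and the median of all entries was -0.16. In Panc-1, 56 of 57 were lower with RARγi-2, with a median of -0.57, and 2 (PLK1 and HJURP) were lower past 2-fold, against 2.41% of all entries, whose median was -0.11. PLK1 had the largest difference in Panc-1 (-1.33), and TOP2A in PK-1 (-2.18). BUB3 had the smallest in both lines (-0.33 and 0.01). Since the doses are not given in the sources used here, the inhibitors are not ranked by strength.

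The lines were also compared before treatment. Control PK-1 cells had less than control Panc-1 cells of 38 members and more of 19, with a median difference of -0.29 on the log2 scale. The same split and median were not taken over all entries. Past 2-fold, 6 members were lower in PK-1 (BUB3, KIF15, HJURP, CENPF, MYBL2 and MKI67), where 17.3% of all entries were, and 0 were higher, where 16.1% of all entries were. As shares of the 57, both counts lay below those of all entries. MYBL2 showed the largest gap (-1.80), with 63.7 TPM in PK-1 cells and 225 TPM in Panc-1 cells, and TOP2A the largest in the other direction (0.92). Across the 57 genes, the log2 fold changes of PK-1 and of Panc-1, which have separate controls, had a Pearson r of 0.73 for RARγi-1 and 0.77 for RARγi-2 (Spearman 0.66 and 0.77). Across 9912 entries measured in both lines, r was 0.65 and 0.72. Genes are not independent replicates, and these values are descriptions.

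Other genes of the mitotic machinery were counted in 11 lists, 161 genes in all. Among 6 other mitotic kinesins, 4, 5, 4 and 5 were lower past 2-fold in the 4 comparisons (PK-1 RARγi-1, PK-1 RARγi-2, Panc-1 RARγi-1, Panc-1 RARγi-2, the order of counts from here on). The shares of all entries lower or higher past 2-fold, given above, are the background for each of these counts. KIFC1, which focuses spindle poles, was at 60.4, 17.3 and 3.56 TPM in PK-1 cells and 144, 38.5 and 23.8 TPM in Panc-1 cells. KIF2A, a depolymerase related to KIF2C, was at 34.6, 29.6 and 17.9 TPM and at 26.4, 26.3 and 23.05 TPM, within 2-fold in each. Of 24 transport kinesins and their adaptors, which carry cargo outside mitosis, 14 reached 5 TPM in PK-1 cells and 16 did in Panc-1 cells, and those at or near the floor could not be called lower. Of the 24, 0 were lower past 2-fold in any comparison and 4 were higher in PK-1 with RARγi-2 (KIFAP3, KIF5A, KLC4 and KIF13B), where 13.9% of all entries were higher. KIF5A is a low gene, at 1, 1.14 and 3.26 TPM in PK-1 cells. The transport kinesins at 5 TPM or more had medians of 0.39, 0.21, 0.27 and 0.22, where the kinesins among the 57 had -1.52, -3.03, -1.54 and -2.11. KIFAP3 was at 15.6, 30.4 and 38.2 TPM in PK-1 cells and 8.42, 14.3 and 14.5 TPM in Panc-1 cells, and KIF13A, with the lowest mean log2 fold change of those at 5 TPM or more in both lines, held between 69.2% and 116% of its control.

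Of 23 further kinetochore subunits, 13, 17, 8 and 9 were lower past 2-fold. ZWINT, which recruits checkpoint proteins, was at 187, 40.6 and 20.7 TPM in PK-1 cells and 164, 40.6 and 29.5 TPM in Panc-1 cells. MIS12, a core subunit, was at 32.3, 47.4 and 57.9 TPM in PK-1 cells and 22.5, 32.2 and 57.2 TPM in Panc-1 cells, and was higher past 2-fold in Panc-1 with RARγi-2 (1.31). Of 10 genes of the RZZ complex and checkpoint partners, 6, 6, 4 and 4 were lower. SGO2, which protects centromeric cohesion, had the lowest mean, with log2 fold changes of -1.33, -2.55, -1.68 and -1.97, while MAD2L1BP, which takes MAD2 out of the checkpoint complex, lay between -0.15 and 0.21.

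Of 17 genes of the anaphase-promoting complex and its regulators, 1, 3, 2 and 2 were lower past 2-fold, where 5.67%, 14.6%, 7.11% and 13.0% of all entries were. Of the 17, 13 passed 2-fold in no comparison. Medians over all 17 were -0.22, -0.37, -0.05 and -0.08. FBXO5 (EMI1), an inhibitor of the complex and not a subunit, had the lowest mean log2 fold change, with 39.5%, 42.1%, 40.1% and 37.7% of its control. The subunit CDC16 had the highest mean and was at 70.5, 115 and 129 TPM in PK-1 cells and 51.3, 72.9 and 75.7 TPM in Panc-1 cells, within 2-fold in each.

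Of 20 further spindle assembly and augmin genes, 7, 14, 5 and 7 were lower. GTSE1, a microtubule regulator, had log2 fold changes of -1.99, -3.67, -2.13 and -2.50. MAPRE3, a protein of microtubule ends, was higher past 2-fold in PK-1 with both inhibitors (1.78 and 1.45), with 0.55 and 0.42 in Panc-1. Of 13 centrosome duplication genes, 2, 6, 1 and 4 were lower, among them PLK4, the kinase that starts the process (-1.30, -2.62, -1.40 and -1.63), while TUBGCP2, of the γ-tubulin complex, lay between -0.18 and -0.02. Of 10 genes of cytokinesis and abscission, 3, 3, 4 and 4 were lower. ARHGAP11A had the lowest mean (-1.74, -3.55, -1.68 and -2.12). ARHGEF2 (GEF-H1), a microtubule-bound activator of RhoA, had the highest mean and rose past 2-fold in all 4 comparisons, from 25.6 to 85.2 and 115 TPM in PK-1 cells and from 51.8 to 185 and 131 TPM in Panc-1 cells.

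Of 12 tubulins, 2, 3, 3 and 3 were lower past 2-fold. In PK-1, 2 of the 12 (TUBA1A and TUBB2A) were higher with both inhibitors, where 10.7% and 13.9% of all entries were higher. TUBA4A had log2 fold changes of -0.49, -1.55, -1.94 and -1.64, and TUBA1A of 1.5, 1.56, 0.41 and 0.66. Tubulin genes are near-identical in sequence, and how reads shared between them were counted is not given in the sources used here, so these values are uncertain. Of 11 MuvB and DREAM subunits, the complexes that bind CHR elements, 2, 3, 1 and 2 were lower. TFDP1, an E2F partner, was at 236, 85.7 and 55.4 TPM in PK-1 cells and 70.8, 21.4 and 20.2 TPM in Panc-1 cells. LIN37, a MuvB subunit, was at 13.99, 28.99 and 40.7 TPM in PK-1 cells and 31.6, 89.9 and 149 TPM in Panc-1 cells, higher past 2-fold in all 4 comparisons, just past it in PK-1 with RARγi-1 (1.0), where it was not past 2-fold once libraries were rescaled. LIN37 exons overlap other genes on both strands. Of 15 further regulators of mitotic entry, 6, 9, 5 and 7 were lower. CDK1, the partner of cyclin B, was at 128, 38.1 and 8.73 TPM in PK-1 cells and 103.8, 32.0 and 17.4 TPM in Panc-1 cells, and PLK3, a stress-responsive relative of PLK1, was higher past 2-fold in PK-1 (1.71 and 1.55), with 0.60 and 0.37 in Panc-1.

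**Figure D5:**
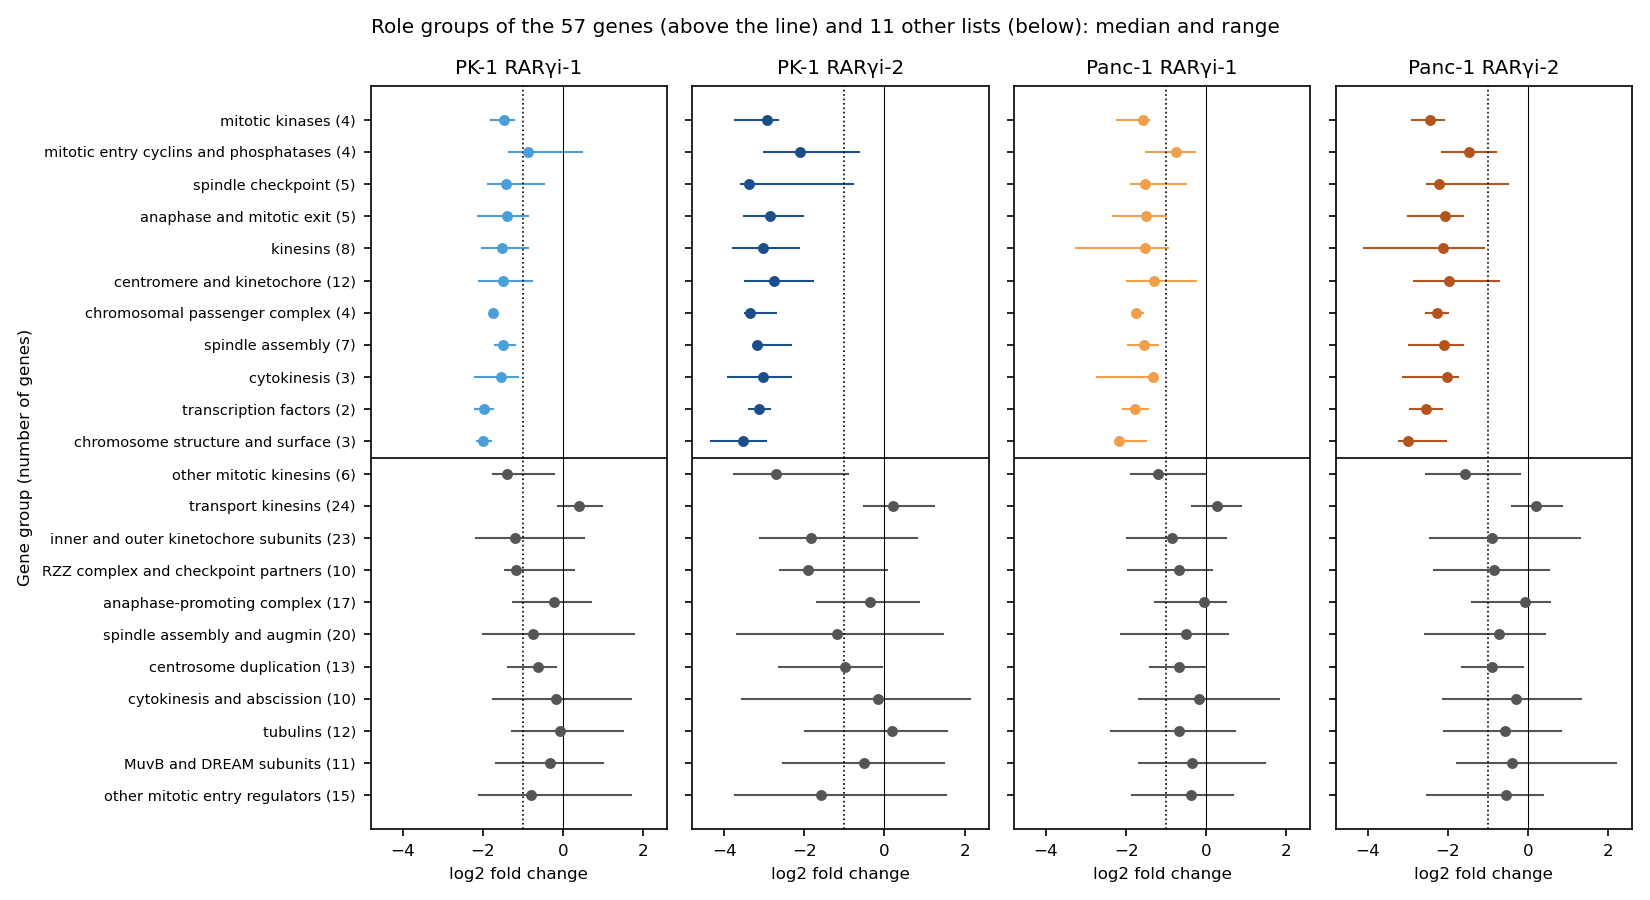
Median (points) and range (lines) of the log2 fold change (x axis) in each of 11 role groups of the 57 genes (coloured, above the line) and 11 other lists of mitotic or related genes (grey, below), with 1 panel for each treated library. Medians are over genes with at least 5 TPM in the line. Ranges, and the numbers in brackets, are over all genes of the group. Transport kinesins lie at or above 0 by their medians (0.39, 0.21, 0.27 and 0.22), and the chromosome structure and surface genes lie lowest.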

How the data were processed

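RNA was extracted with Trizol and sequenced from libraries of the TruSeq Stranded mRNA kit, with 1 library per condition (6 in all). Values deposited by the authors are log2-transformed TPM for 53826 entries per library, with values under 1 TPM raised to 1 TPM, and hg38 is named in the submitters' processing notes. The aligner, the counting method, its use of strand and the annotation are not given in the sources used here. TPM keeps no sequencing depth, so depth is unknown and no interval or detection limit is given.

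Log2 values were put back to TPM, 1 TPM was added, and the log2 ratio of a treated library to the control of its line was taken (Python 3.11.15, numpy 2.4.6, pandas 2.3.3). Such fold changes understate the change of low genes. A gene was called past 2-fold, and background shares were taken over entries with at least 5 TPM in 1 or more libraries of the line. With 1 library per condition no test was run. The counting was checked on simulated libraries with 4-fold changes set in entries above a minimum control level. That check does not bear on calls near 2-fold or on low genes. Groups were taken from the library titles.

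The 57 genes and the lists were chosen with earlier results of these data known. Genes given with values in every library were, in each role group, the 2 with the highest mean control level and those with the lowest and highest mean log2 fold change, and, in each other list, those with the lowest and highest mean among genes at 5 TPM or more in both lines. The other genes named were chosen after their values were seen. In the files 3 septin symbols had been turned into dates and were found by their Entrez gene ID. Promoter windows came from RefSeq (GRCh38.p14). For a gene with several windows, the one nearest to most GENCODE 29 transcript starts was used, and 37 of 46 windows started within 50 bases of such a start. Exon overlaps were taken from GENCODE 29 basic transcripts. Alternatives were other pseudocounts, a rescaling, other fold thresholds and other minimum levels.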

Additional observations from a re-analysis of the deposited data

Results flagged for a closer look

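No member of the 57 genes had log2 fold changes of opposite sign in PK-1 and Panc-1 with both inhibitors. Of the 161 genes in the other lists, 13 did, which is why they are given here. The share of all entries with such opposite signs was not taken, so whether 13 of 161 is many or few is not known. In 3 of them at least 1 difference was past 2-fold. HAUS2, a subunit of augmin, had -0.93 and -1.22 in PK-1 (RARγi-1, RARγi-2), and 0.38 and 0.26 in Panc-1. HAUS3, of the same complex, had -0.67 and -1.05 in PK-1 cells and 0.16 and 0.07 in Panc-1. TUBB3, a β-tubulin, had 0.34 and 0.38 in PK-1 cells and -2.38 and -2.09 in Panc-1. The other 10 lay within 2-fold. CENPT, an inner kinetochore subunit, had 0.13 and 0.42 in PK-1 cells and -0.75 and -0.78 in Panc-1. ZW10, of the RZZ complex, had -0.50 and -0.28 in PK-1 cells and 0.14 and 0.53 in Panc-1. MAD1L1, the partner of MAD2L1, had 0.28 and 0.04 in PK-1 cells and -0.33 and -0.40 in Panc-1. MAD2L1BP had 0.21 and 0.05 in PK-1 cells and -0.02 and -0.15 in Panc-1. ANAPC4, a subunit of the anaphase-promoting complex, had -0.34 and -0.46 in PK-1 cells and 0.24 and 0.04 in Panc-1. CDC26, of the same complex, had -0.40 and -0.48 in PK-1 cells and 0.16 and 0.55 in Panc-1. RHOA, the GTPase of the contractile ring, had -0.13 and -0.15 in PK-1 cells and 0.02 and 0.33 in Panc-1. SEPTIN2, a septin, had -0.20 and -0.15 in PK-1 cells and 0.04 and 0.19 in Panc-1. TUBA1C, an α-tubulin, had 0.01 and 0.19 in PK-1 cells and -0.52 and -0.41 in Panc-1. ARPP19, an inhibitor of protein phosphatase when phosphorylated, had 0.13 and 0.08 in PK-1 cells and -0.17 and -0.17 in Panc-1. Values as near 0 as the 0.01 of TUBA1C are smaller than the shift made by rescaling the libraries (-0.12 in PK-1 with RARγi-1), so their sign depends on the scaling. The difference between the lines was not tested, because each value rests on 1 treated and 1 control library and the comparisons in a line share the control. HAUS3 and TUBB3 exons overlap other genes on their own strand, and those of HAUS2 overlap a gene on the opposite strand.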

How the results depend on the processing

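No paired analysis was possible because the labels give no replicate numbers and no result comes from a test. A fit over both lines with the line as a block was not run. With 1 library in each condition, none was left out of a group. With a pseudocount of 0.1 TPM, no pseudocount, rescaled libraries, other minimum levels and summed symbols, counts of members lower past 2-fold stayed between 50 and 52 for RARγi-1 and 54 and 55 for RARγi-2 in PK-1, between 48 and 52 for RARγi-1 and at 54 for RARγi-2 in Panc-1, and those lower in all 4 between 45 and 50. At a fold threshold of 3, the counts with RARγi-1 were 25 (PK-1) and 22 (Panc-1), and 16 in all 4, since fewer genes lie past a larger fold. At or below a log2 fold change of -1.5, a smaller step than 3-fold, lay 2.28% (PK-1) and 3.17% (Panc-1) of all entries with RARγi-1. The share of all entries past 3-fold in all 4 was not taken. Without a pseudocount KIF14 passed 2-fold in PK-1 with RARγi-1, and HJURP and CENPM in Panc-1. With rescaled libraries CDC20, KIF2C, HJURP and CENPM passed it in Panc-1 with RARγi-1. The rescaling moved PK-1 with RARγi-1 by -0.12 on the log2 scale and changed the sign of 0 members. With the motif's first base limited to 50 bases before to 10 after the start, an alternative chosen after seeing the data, CHR was in 52.2% and CCAAT in 32.6% of member windows. The RARγi-2 minus RARγi-1 spread over all entries (a scaled median absolute deviation, 0.41 for PK-1 libraries and 0.32 for those of Panc-1) also holds real differences between the inhibitors, so it is not a measure of replicate error.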
